A study of Mus musculus with 4 samples.

Results

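The kinases and subunits that carry the AKT and mTOR signal were examined in CD8 T cells from mouse hepatocellular carcinoma. The 9 genes, taken by symbol from the 14934 genes of the deposited count table, were Akt1, Akt2, Pdpk1, Mtor, Rptor, Rictor, Mlst8, Rheb and Tsc1. All 9 were present in the table, and all 9 were among the 11563 genes kept by the filter on low counts. The tumour-infiltrating cells had been separated by flow cytometric sort into JAML-positive CD8 T cells (2 libraries) and JAML-negative CD8 T cells (2 libraries), all of wild-type genotype (WT) and with an empty treatment label. JAML is an immunoglobulin-family adhesion receptor that can costimulate T cells. The labels name no mouse strain, age or tumour model, nor do they say whether replicates A and B of a group came from separate animals. Each p-value therefore rests on library-to-library spread alone, which may be technical. The comparison addresses how gene expression differs between infiltrating CD8 T cells with and without surface JAML.

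AKT kinases are switched on downstream of the T cell receptor, CD28 and cytokine receptors. The kinase PDK1, encoded by Pdpk1, phosphorylates the activation loop of AKT, and mTOR complex 2 (mTORC2) phosphorylates its hydrophobic motif. AKT in turn inactivates the TSC complex, which otherwise keeps the small GTPase RHEB off, and GTP-bound RHEB activates mTOR complex 1 (mTORC1), the complex that promotes protein synthesis and glycolysis. The catalytic subunit mTOR and the subunit MLST8 belong to both complexes, whereas raptor (Rptor) defines mTORC1 and rictor (Rictor) defines mTORC2. In CD8 T cells mTORC1 is known for its role in effector differentiation, and AKT for holding FOXO transcription factors out of the nucleus.

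Library depth was 27530187 to 30569728 counts. JAML-positive replicate A stood apart, with 12.5% of its counts in 82 ribosomal protein genes, against 7.71% in JAML-positive replicate B and 8.52% to 8.62% in the JAML-negative libraries. The label was checked on markers of CD8 T cells, whose 7 listed genes summed to 3879 to 4427 CPM (counts scaled to a common library total) in JAML-positive and 4011 to 4045 CPM in JAML-negative libraries. Jaml itself lay at 138 and 147 CPM in JAML-positive and 131 and 117 CPM in JAML-negative cells, so the direction of each comparison rests on the labels. Summed markers of several other immune cells were also higher in the JAML-positive libraries. Genes of dendritic cells and MHC class II (9 of 9 higher in mean) summed to 370 and 213 CPM in JAML-positive and 64.9 and 61.8 CPM in JAML-negative libraries. That sum came mainly from Cd74, H2-Aa, H2-Ab1 and H2-Eb1. Flt3 was also higher without overlap of the groups, whereas Xcr1 and Ciita overlapped. Zbtb46 and Clec9a were high in JAML-positive replicate B alone, at 113 and 133 counts. The plasmacytoid dendritic cell list (6 of 6 higher) summed to 292 and 256 CPM in JAML-positive and 99.6 and 112 CPM in JAML-negative libraries, and the B and plasma cell list (6 of 7 higher) to 126 and 84.9 CPM in JAML-positive and 10.5 and 18.1 CPM in JAML-negative libraries, with the JAML-positive libraries above the JAML-negative ones in both lists. The macrophage and monocyte list (5 of 8 higher) summed to 202 and 155 CPM in JAML-positive and 79.7 and 75.5 CPM in JAML-negative libraries. That excess came mainly from Mpeg1, with 3145 and 2802 counts in JAML-positive and 212 and 382 counts in JAML-negative libraries. Of the list's other members, C1qb was higher and Adgre1 lower without overlap of the groups, and Csf1r, Lyz2, C1qa, Cd68 and Fcgr1 overlapped. The hepatocyte and tumour list (1 of 5 higher) summed to 18.1 and 22.03 CPM in JAML-positive and 45.6 and 27.5 CPM in JAML-negative libraries. Among defining markers, Mzb1 and Ccr8 had 0 counts in both JAML-negative libraries. Ccr8 is from a CD4 and regulatory T cell list (5 of 6 higher in mean) whose members did not all go 1 way. In that list Ikzf2 was lower, at 41.8 and 58.6 CPM in JAML-positive and 104 and 83.0 CPM in JAML-negative libraries, and Foxp3 overlapped. Pax5 had 0 and 0 counts in JAML-positive and 1 and 0 in JAML-negative libraries, too few to compare. The part of these cells in the values of the 9 genes was not tested. In such bulk libraries fewer cells of a type and less RNA per cell cannot be told apart.

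No gene of the 9 passed the test across all genes. With edgeR's quasi-likelihood test and Benjamini-Hochberg adjustment, 0 of the 9 were higher and 0 lower in JAML-positive cells at an adjusted p under 0.05. Over all 11563 tested genes the same test called 0% higher and 0% lower. At an unadjusted p under 0.05, 1 of the 9 genes was lower, Rictor, and 0 were higher, beside 3.34% of all genes lower and 4.32% higher. DESeq2 also called Rictor alone, as lower, where it called 3.02% of all genes lower and 4.64% higher, and limma-voom called 0 genes. In sign, 6 of the 9 genes had lower and 3 higher values in JAML-positive cells (49.3% of all genes were lower and 50.7% higher), with a median log2 fold change of -0.12, against 0.01 over all tested genes. Groups did not overlap for 4 genes. Rictor, Rptor and Mlst8 were lower in both JAML-positive libraries than in either JAML-negative library (18.2% of all genes were), and Akt1 was higher (20.3% of all genes).

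Rictor stood apart from the other 8 genes by the closeness of its replicates in both groups. Rictor (Entrez 78757, chromosome 15, 6708379 to 6800401, plus strand, GRCm38) encodes the scaffold subunit that defines mTORC2. Its counts were 2495 and 3085 in JAML-positive libraries A and B, against 5437 and 5188 in JAML-negative libraries A and B. On the TMM scale these were 94.4 and 98.6 CPM in JAML-positive cells and 192 and 188 CPM in JAML-negative cells. Both JAML-positive libraries held close to the same level, as did both JAML-negative libraries, and the groups did not overlap. The ratio of the higher to the lower replicate was 1.05 in JAML-positive and 1.02 in JAML-negative cells. The fold was 0.507 (95% interval 0.342 to 0.751), a log2 fold change of -0.98 (SE 0.26), with an edgeR adjusted p of 0.609 and an unadjusted p of 0.00265. By unadjusted p it ranked 26 among the tested genes. DESeq2 gave -0.99 (SE 0.16) and an adjusted p of 2.04e-07. With 1 library left out the log2 fold change stayed between -1.02 and -0.95, and the edgeR adjusted p over the alternatives other than DESeq2 was at least 0.417. Rictor also has the longest transcript of the 9 genes, 9312 nucleotides, and the 596 tested genes of 8000 nucleotides or more had a median log2 fold change of -0.21. With trends in transcript length and GC content removed, its log2 fold change was -0.77 (SE 0.24).

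The bases just before the transcription start are shown for Rictor, Rptor and Mlst8, the genes that were lower without overlap, because their starts differ in base composition. The sequences are the 250 bases upstream of a RefSeq transcript start on GRCm38.p6, read along the gene's strand, with CG dinucleotides in capitals. They lie at chr15:6708131-6708380 on the plus strand for Rictor, chr11:119602655-119602904 on the plus strand for Rptor and chr17:24479079-24479328 on the minus strand for Mlst8.
Rictor: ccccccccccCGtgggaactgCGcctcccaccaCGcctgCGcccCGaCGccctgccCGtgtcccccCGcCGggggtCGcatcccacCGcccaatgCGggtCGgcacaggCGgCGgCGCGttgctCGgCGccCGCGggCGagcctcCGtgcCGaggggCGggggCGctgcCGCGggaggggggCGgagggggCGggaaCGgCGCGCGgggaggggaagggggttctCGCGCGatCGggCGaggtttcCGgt
Rptor: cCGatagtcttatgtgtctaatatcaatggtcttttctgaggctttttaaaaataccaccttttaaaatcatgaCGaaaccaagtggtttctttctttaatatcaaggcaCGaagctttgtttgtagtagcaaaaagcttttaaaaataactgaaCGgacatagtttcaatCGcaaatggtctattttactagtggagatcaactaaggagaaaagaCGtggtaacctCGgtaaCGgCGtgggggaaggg
Mlst8: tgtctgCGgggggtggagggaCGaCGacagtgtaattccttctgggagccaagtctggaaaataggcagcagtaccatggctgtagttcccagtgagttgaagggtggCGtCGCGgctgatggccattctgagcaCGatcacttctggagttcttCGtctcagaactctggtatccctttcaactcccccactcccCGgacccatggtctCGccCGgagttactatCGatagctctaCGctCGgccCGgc
The Rictor window held 40 CG dinucleotides, the Mlst8 window 15 and the Rptor window 9, where the median over 14931 such windows of genes in the table was 14 (quartiles 6 and 22). Among genes that were not lower without overlap, the Rheb window held 37, and 1 window each of Pdpk1 and Akt1 held 31. FOXO factors are reported to raise Rictor transcription in other mouse and human cells, and the FOXO core motif GTAAACA was therefore searched on both strands (TGTTTAC on the other). It was found in 0 of the 3 windows of Rictor, Rptor and Mlst8 and in 2.36% of the windows of genes in the table. At so low a share, 3 windows are too few for an absence to be informative. Among the other 6 genes, 1 of the 2 windows of Akt1 held the motif. These are matches of letters and say nothing about binding.

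**Figure D1:**
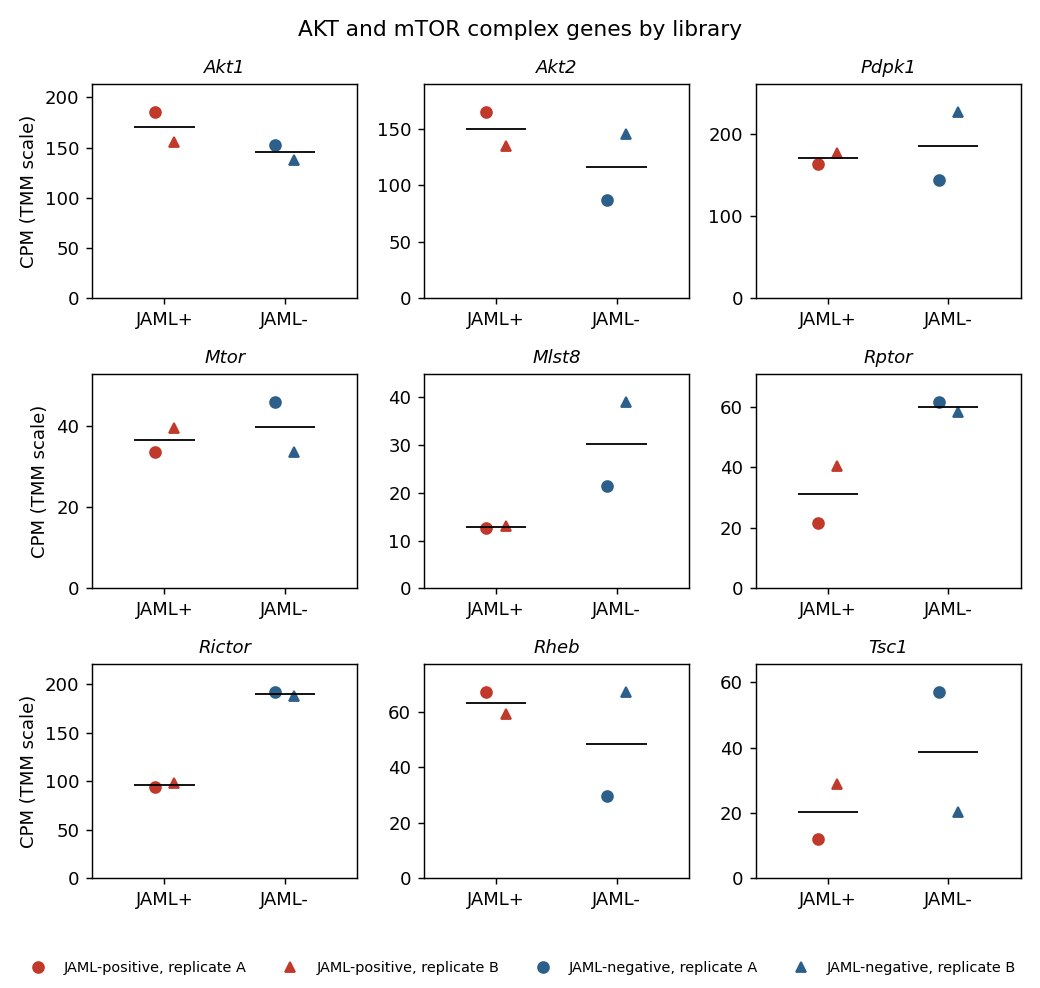
Expression of each of the 9 genes in CPM (TMM scale, axes from 0) in JAML-positive (red, left) and JAML-negative (blue, right) libraries, with replicate A as circles, replicate B as triangles and the group mean as a line. Rictor lies at 94.4 and 98.6 CPM in JAML-positive and 192 and 188 CPM in JAML-negative cells. For Akt2, Pdpk1, Mtor, Mlst8, Rheb and Tsc1 the JAML-negative replicates differ by more than the 2 group means do.

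Raptor is the subunit through which mTORC1 recruits its substrates. Rptor (Entrez 74370, chromosome 11, 119602905 to 119899576, plus strand) had 570 and 1267 counts in the JAML-positive libraries, against 1741 and 1603 counts in the JAML-negative libraries. In CPM it lay at 21.6 and 40.5 in JAML-positive and 61.6 and 58.2 in JAML-negative cells. The groups did not overlap, but the JAML-positive replicates differed from each other 1.88-fold. Its log2 fold change was -0.92 (SE 0.45, 95% interval -1.90 to 0.05, edgeR adjusted p = 0.609). That value was -0.56 without JAML-positive replicate A and -1.48 without JAML-positive replicate B.

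The balance of the complex-defining subunits was read within each library, where it does not depend on library scaling. Rictor had 4.38 and 2.43 counts for each count of Rptor in the JAML-positive libraries (A, then B), and 3.12 and 3.24 in the JAML-negative ones. The JAML-positive libraries bracketed the JAML-negative ones, so the groups overlapped. The mean log2 ratio was 1.71 ± 0.60 in JAML-positive and 1.67 ± 0.04 in JAML-negative cells (SD, n = 2 each), a difference of 0.04. An exact two-sided permutation test gave p = 1, and its smallest possible p with 6 arrangements of the libraries is 0.333. Lower values were thus seen for both defining subunits, and no shift of their balance was detectable with these libraries.

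Of the subunits shared by both complexes, Mlst8 was lower without overlap and Mtor was not. Mlst8 (Entrez 56716, chromosome 17, 24473551 to 24479078, minus strand) encodes a WD-repeat protein that binds the mTOR kinase domain. It had 332 and 410 counts in JAML-positive cells, against 604 and 1076 in JAML-negative cells, or 12.6 and 13.1 CPM in JAML-positive and 21.4 and 39.1 CPM in JAML-negative cells. The JAML-positive libraries were alike and the JAML-negative libraries spread 1.83-fold. Its log2 fold change was the lowest of the 9 genes at -1.23, with the widest interval (SE 0.65, 95% interval -2.63 to 0.18, edgeR adjusted p = 0.615). It was -0.73 without JAML-negative replicate B and -1.61 without JAML-negative replicate A. Exons of Mlst8 share 22.5% of their bases with Bricd5 on the opposite strand, and the sources used here do not say whether counting used strand. Bricd5 had 66 and 48 counts in JAML-positive and 0 and 42 counts in JAML-negative libraries, well below Mlst8 in each.

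Mtor (Entrez 56717, chromosome 4, 148448611 to 148557683, plus strand) encodes the kinase itself. It had 889 and 1238 counts in JAML-positive and 1300 and 923 counts in JAML-negative cells, which is 33.6 and 39.6 CPM in JAML-positive and 46.0 and 33.5 CPM in JAML-negative cells. Both JAML-positive libraries lay between the JAML-negative ones. The log2 fold change was -0.11 (SE 0.46, 95% interval -1.11 to 0.88, edgeR adjusted p = 0.969), and it was 0.13 without JAML-negative replicate A.

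The AKT kinases leaned the other way. Akt1 (Entrez 11651, chromosome 12, 112653821 to 112674884, minus strand), the more widely expressed AKT, had 4911 and 4878 counts in JAML-positive and 4322 and 3777 counts in JAML-negative cells. These were 186 and 156 CPM in JAML-positive and 153 and 137 CPM in JAML-negative cells. The groups did not overlap, though the gap between the nearest libraries was smaller than the gap between replicates. The log2 fold change was 0.23 (SE 0.26, 95% interval -0.32 to 0.79, edgeR adjusted p = 0.852). Akt2 (Entrez 11652, chromosome 7, 27591552 to 27640826, plus strand), the AKT best known for insulin-driven glucose uptake, had 165 and 134 CPM in JAML-positive and 86.7 and 146 CPM in JAML-negative cells. Replicate A of the JAML-negative cells alone was low, and the groups overlapped. Akt2 gave a log2 fold change of 0.36 (SE 0.31, edgeR adjusted p = 0.789). Leaving out JAML-negative replicate A took it to 0.03, and leaving out replicate B of that group to 0.79.

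Akt1 had 1.12 and 1.16 counts for each count of Akt2 in the JAML-positive libraries (A, then B), and 1.76 and 0.942 in the JAML-negative ones. The JAML-positive libraries again lay between the JAML-negative ones. The mean log2 ratio was 0.19 ± 0.03 in JAML-positive and 0.37 ± 0.64 in JAML-negative cells (SD, n = 2 each), with p = 1 by the exact two-sided permutation test.

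Pdpk1 (Entrez 18607, chromosome 17, 24073680 to 24150924, minus strand), which encodes the activation-loop kinase PDK1, had 164 and 177 CPM in JAML-positive and 144 and 228 CPM in JAML-negative cells. Here too the JAML-positive libraries lay inside the JAML-negative range. The log2 fold change was -0.12 (SE 0.27, 95% interval -0.72 to 0.48, edgeR adjusted p = 0.938), and it was 0.25 without JAML-negative replicate B.

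The switch that sets mTORC1 activity showed the widest replicate spread. Rheb (Entrez 19744, chromosome 5, 24802823 to 24842624, minus strand), the GTPase that activates mTORC1, had 67.2 and 59.4 CPM in JAML-positive and 29.6 and 67.1 CPM in JAML-negative cells. Only JAML-negative replicate A was low, a 2.27-fold gap between replicates. Its log2 fold change of 0.39 (SE 0.44, edgeR adjusted p = 0.855) was -0.09 without that library and 1.10 without JAML-negative replicate B. Tsc1 (Entrez 64930, chromosome 2, 28641228 to 28691167, plus strand), which encodes the hamartin subunit of the TSC complex that restrains RHEB, had 11.9 and 28.9 CPM in JAML-positive and 57.1 and 20.2 CPM in JAML-negative cells. Replicates differed 2.43-fold in JAML-positive and 2.83-fold in JAML-negative cells, and the groups overlapped. The log2 fold change was -0.89 (SE 0.64, 95% interval -2.27 to 0.50, edgeR adjusted p = 0.740), and it was 0.05 without JAML-negative replicate A. JAML-negative replicate A thus held the lowest Rheb and Akt2 and the highest Tsc1 of the 4 libraries.

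**Figure D2:**
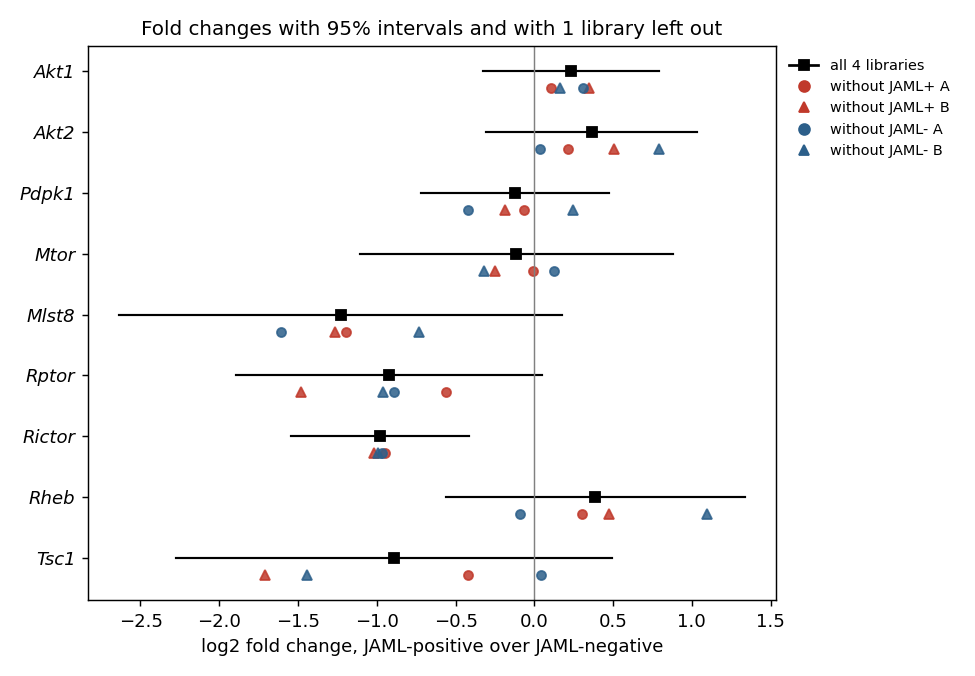
Log2 fold change of each gene in JAML-positive over JAML-negative cells, with all 4 libraries (black squares, bars are edgeR 95% intervals) and with 1 library left out (coloured marks below). Only the interval of Rictor excludes 0, at -1.55 to -0.41, and its values with a library left out lie within -1.02 to -0.95, whereas those of Tsc1 run from -1.71 to 0.05.

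Levels were compared between genes per kilobase of the longest GENCODE transcript, as the mean CPM per kilobase over the 4 libraries. Akt1 was highest at 58.7 CPM per kilobase, above 90.9% of 10959 tested genes with a length, and its lowest library lay above the highest of every other gene of the set. Akt2 (29.3) and Pdpk1 (24.9) followed, and their libraries overlapped. Rictor (15.4) and Rheb (13.8) came next, then Rptor (6.90), Mlst8 (5.59), Mtor (4.46) and Tsc1 (3.83), each overlapping its neighbour in the order. The median tested gene lay at 9.79 CPM per kilobase. In JAML-positive cells Rictor stood at 10.1 and 10.6 CPM per kilobase, Mtor at 3.93 and 4.62, Rptor at 3.27 and 6.14 and Mlst8 at 3.26 and 3.40. In JAML-negative cells Rictor stood at 20.7 and 20.2 CPM per kilobase, Mtor at 5.37 and 3.91, Rptor at 9.35 and 8.83 and Mlst8 at 5.55 and 10.1. In all 4 libraries Rictor was thus the most abundant per kilobase of the 4 complex subunits among these genes. With the median transcript length in place of the longest, Mtor moved from the 8th place to the 6th, ahead of Rptor and Mlst8.

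**Figure D3:**
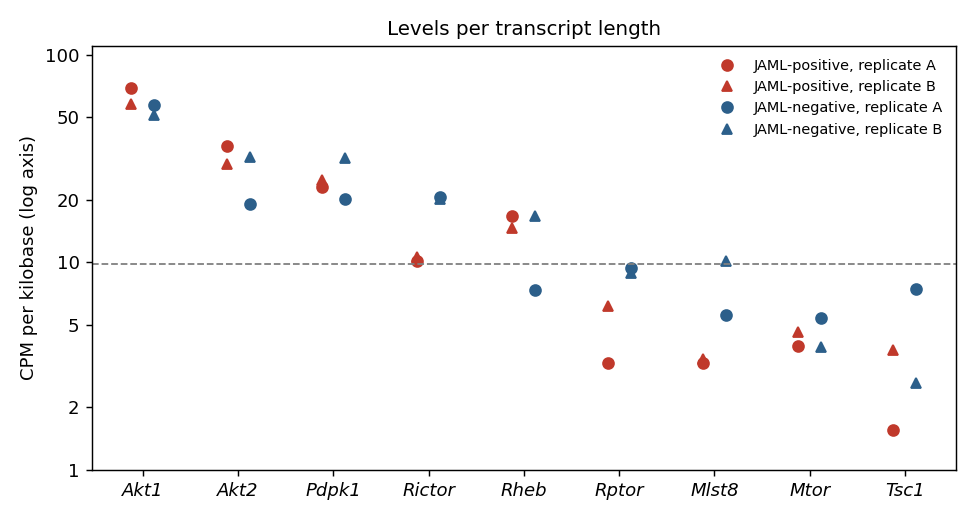
Level of each gene in CPM per kilobase of its longest transcript (log axis) in JAML-positive (red, left of each pair) and JAML-negative (blue, right) libraries, ordered by the mean over the 4 libraries, with the median of all tested genes as a dashed line at 9.79. Akt1 lies above the other 8 genes in every library, and Rictor lies near the median line in JAML-positive cells and well above it in JAML-negative cells.

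Across the 4 libraries, the 3 genes whose log2 CPM profile lay nearest to that of Rictor, among 8483 genes of at least 10 CPM in mean, were Chm, Mib1 and Jmy. Their Euclidean distances were 0.11, 0.12 and 0.14 log2 units, where the median gene lay at 1.22. Chm had 38.8 and 41.3 CPM in JAML-positive and 78.1 and 71.6 CPM in JAML-negative cells. Mib1 had 48.6 and 50.5 CPM in JAML-positive and 91.4 and 99.9 CPM in JAML-negative cells, and Jmy had 47.2 and 43.6 CPM in JAML-positive and 86.8 and 90.8 CPM in JAML-negative cells. With 4 libraries such likeness is a description only.

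The rest of the pathway was read from 8 lists with 102 tested genes. None of these genes passed in edgeR (0 higher, 0 lower), while 4 higher and 6 lower genes had an unadjusted p under 0.05 (4.32% and 3.34% of all genes). DESeq2 called 3 higher and 4 lower (4.64% and 3.02% of all genes), so these counts lie near the shares over all genes. In sign 44 were higher and 58 lower, with a median log2 fold change of -0.08. Groups did not overlap for 20 higher and 20 lower genes of the 102, close to the 20.3% and 18.2% of all genes.

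Among 11 tested subunits and regulators of the same complexes, 7 had higher and 4 lower values, with a median of 0.51. That median rests on single libraries: it was -0.32 with JAML-positive replicate B left out, and 0.27 or 0.79 with JAML-negative replicate A or B left out. Tsc2, the partner of Tsc1 that carries the GTPase-activating domain toward RHEB, had 51.6 and 66.5 CPM in JAML-positive and 34.5 and 41.0 CPM in JAML-negative cells (0.66, SE 0.41, edgeR adjusted p = 0.689). Mapkap1, which encodes the mTORC2 subunit SIN1 and was chosen after its values were seen, lay at 72.1 and 63.9 CPM in JAML-positive and 39.4 and 49.8 CPM in JAML-negative cells. That places SIN1 and rictor transcripts on opposite sides, at log2 fold changes of 0.61 (SE 0.38) and -0.98 (SE 0.26), although only the interval of Rictor excluded 0.

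On the amino acid sensing arm, 6 of 12 Rag and Ragulator genes were higher and 6 lower. Flcn, which encodes the folliculin GTPase-activating protein for Rag GTPases, had 30.7 and 26.4 CPM in JAML-positive and 101 and 31.2 CPM in JAML-negative cells, a log2 fold change of -1.22 (SE 0.55, edgeR adjusted p = 0.609). JAML-negative replicate A alone was high, and the value was -0.14 without it. Lamtor3, a Ragulator subunit, had -0.73 (SE 0.49), and -1.09 to -0.40 with 1 library left out. Of 17 GATOR, KICSTOR and sensor genes 7 were higher and 10 lower. Nprl3, a GATOR1 subunit that restrains mTORC1 when amino acids are scarce, had 20.4 and 38.9 CPM in JAML-positive and 9.63 and 7.01 CPM in JAML-negative cells (log2 fold change 1.86, SE 0.72, edgeR adjusted p = 0.609, DESeq2 adjusted p = 0.0198). Wdr59, a GATOR2 subunit, had -0.93 (SE 0.63), which was -0.37 without JAML-positive replicate B and -1.70 without JAML-positive replicate A. Among 8 AMPK and stress genes, 3 were higher and 5 lower, with a median of -0.33 that turned sign with at least 1 library left out. Stk11, the kinase that activates AMPK, and Prkag1, an AMPK subunit, had 0.68 each (SE 0.32, edgeR adjusted p = 0.609 for both). When 1 library was left out, the values ran from 0.48 to 0.93 for Stk11 and from 0.42 to 0.89 for Prkag1.

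Downstream, 3 of 11 mTORC1 substrates were higher and 8 lower (median -0.14). The sign of that median was not stable: it was 0.048 without JAML-positive replicate A, 0.017 without JAML-negative replicate B and -0.40 without JAML-positive replicate B. Lpin1, a phosphatidate phosphatase, had 49.1 and 56.1 CPM in JAML-positive and 116 and 67.8 CPM in JAML-negative cells (-0.81, SE 0.38, edgeR adjusted p = 0.609), and it was -0.37 without JAML-negative replicate A. Tfeb, a lysosomal gene regulator held in the cytoplasm by mTORC1, had 344 and 696 counts in JAML-positive cells against 13 and 215 in JAML-negative cells, with a log2 fold change of 2.13 (SE 1.05, edgeR adjusted p = 0.609). Its value depended on the JAML-negative libraries, at 1.19 without replicate A and 5.27 without replicate B of that group. Of 15 AKT and mTORC2 substrates and AKT phosphatases 6 were higher and 9 lower (median -0.16, and 0.046 without JAML-positive replicate A). Phlpp1, a phosphatase of the AKT hydrophobic motif, had -1.11 (SE 0.64), which was -0.62 without JAML-positive replicate A and -2.001 without JAML-positive replicate B. Ppp2ca, the catalytic subunit of PP2A, had 0.33 (SE 0.25), and 0.095 to 0.58 with 1 library left out.

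Transcripts that lie under the control of the pathway went both ways. Of 16 genes known to be raised through mTORC1, 10 were higher and 6 lower (median 0.31, but 0.13 without JAML-positive replicate B and 0.078 with JAML-negative replicate A left out). Groups did not overlap for 6 higher and 4 lower of the 16, beside 20.3% of all genes higher and 18.2% lower. Hk2, which encodes hexokinase 2, had 60.5 and 65.7 CPM in JAML-positive and 21.4 and 17.8 CPM in JAML-negative cells (log2 fold change 1.69, SE 0.46, edgeR adjusted p = 0.609, DESeq2 adjusted p = 4.45e-06). Slc3a2, the heavy chain of the CD98 amino acid transporter, was lower at -0.50 (SE 0.23, edgeR adjusted p = 0.609). Of 12 FOXO target genes of T cells, which active AKT lowers, 10 had lower and 2 higher values, beside 49.3% of all genes lower and 50.7% higher. The list median was -0.27, and -0.41 to -0.16 with 1 library left out. Whether AKT activity differed was not tested. Groups did not overlap for 7 lower and 1 higher of the 12, beside 18.2% of all genes lower and 20.3% higher. The higher one was Ctla4, named here after its values were seen (0.56, SE 0.23, edgeR adjusted p = 0.609). It had 357 and 390 CPM in JAML-positive and 289 and 218 CPM in JAML-negative cells. Pik3ip1, an inhibitor of PI3 kinase, had 75.0 and 60.5 CPM in JAML-positive and 108 and 143 CPM in JAML-negative cells (-0.90, SE 0.32, edgeR adjusted p = 0.609, DESeq2 adjusted p = 0.0116). Tcf7, which encodes TCF1, needed for stem-like T cells, had 705 and 782 CPM in JAML-positive and 1080 and 1071 CPM in JAML-negative cells (-0.53, SE 0.19, edgeR adjusted p = 0.609, DESeq2 adjusted p = 0.00153).

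**Figure D4:**
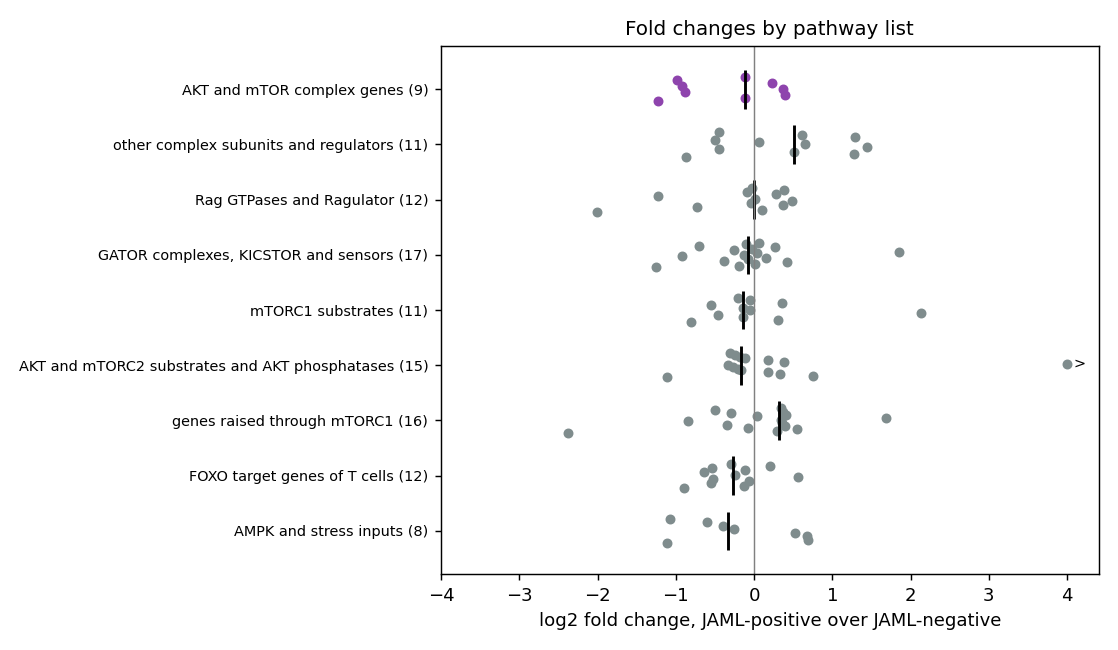
Log2 fold change in JAML-positive over JAML-negative cells of each tested gene in the AKT and mTOR complex set (purple) and in 8 lists of the same pathway (grey), with the list median as a black line and the number of tested genes in brackets. Values beyond 4 are drawn at 4 with an arrow. The 9 genes fall into 4 at -0.89 or below and 5 between -0.12 and 0.39, and the FOXO target list has the most one-sided signs, 10 of 12 below 0.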

How the data were processed

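RNA of sorted cells was sequenced in 4 libraries prepared with a SMARTER mRNA-Seq kit, per the labels' protocols. The authors deposited raw read counts per gene in 1 table, with no normalization recorded and 0 columns left unused. Genome build GRCm38 (mm10) was used, per the submitters' processing notes. No aligner, counter or strand setting was given in the sources used here. Libraries held 27530187 to 30569728 counts.

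Genes were kept by filterByExpr (minimum count 10) and scaled by TMM. Groups were compared with edgeR 4.0.16 in R 4.3.3 (robust quasi-likelihood test, edgeR 4 method, no covariate, adjusted p threshold 0.05), tested on simulated data first. SE is the absolute log2 fold change over the square root of F. DESeq2 1.42.0, limma-voom (limma 3.58.1), other scalings and filters, a replicate block, removal of trends with length and GC content, and each library left out were alternatives. The earlier quasi-likelihood method of edgeR was added after the data were seen. Within-library ratios were compared by exact permutation (scipy 1.17.1). Coordinates and lengths are GENCODE M21 on GRCm38, and promoters RefSeq's on GRCm38.p6, which held at least 1 window for each of the 9 genes.

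The 9 genes, the other lists and the marker lists were chosen with earlier results of these data known, so no p is given for a list. Besides the 9 genes, the text names the 2 genes per list with the smallest p among those of at least 10 CPM in mean. A gene that this rule names and a marker are not reported here.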

Additional observations from a re-analysis of the deposited data

How the results depend on the processing

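Rictor kept its sign and an unadjusted p under 0.05 in all 13 alternatives (log2 fold change -1.02 to -0.77) and passed the adjusted threshold in 1, DESeq2. Akt1, Akt2, Rptor and Mlst8 also kept their signs in all 13, and none of these 4 passed. Genes past the threshold numbered 885 with DESeq2 and 2 with no filter on low counts, and 0 to 11 with 1 library left out (11 without JAML-positive replicate B), against 0. Of the 9 genes, 1 passed with DESeq2. The median of the 9 was 0.022 with length and GC trends removed and -0.32 to -0.063 with 1 library left out. With trends removed, signs turned for Pdpk1 (0.022) and Mtor (0.12). With 1 library left out, log2 fold changes ran from -0.42 to 0.25 for Pdpk1 (turning without JAML-negative replicate B), and, turning without JAML-negative replicate A, from -0.32 to 0.13 for Mtor, -0.091 to 1.10 for Rheb and -1.71 to 0.045 for Tsc1. The medians of the other pathway lists also turned sign with at least 1 library left out, except those of the FOXO targets and of the genes raised through mTORC1. The cause was not tested. With 1 library left out, the group difference in log2 ratio ran from -0.38 to 0.46 for Rictor to Rptor and from -0.63 to 0.28 for Akt1 to Akt2. Deviations of same-letter libraries from their group means had r = 0.018 across 11563 genes, which does not show whether a letter marks a shared animal or sort. With the replicate block the median of the 9 was -0.11 and 0 genes passed. With 2 libraries a group, the 95% intervals of 8 of the 9 genes include 0.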

Other observations

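A pair of pathway genes outside the naming rule were chosen after their values were seen. Bad, which encodes a pro-apoptotic BCL2 family protein inactivated by AKT, had 279 and 282 counts in JAML-positive cells against 1 and 0 counts in JAML-negative cells. The ratio of summed counts, scaled by library size, was 542, and edgeR gave a fold of 436 (95% interval 3.12 to 60891). Other pathway genes fell to 0 counts in 1 replicate of a group, and Grb10 and Rragd in 1 replicate of each group. Grb10 had 219 and 0 counts in JAML-positive libraries and, like Bad, 1 and 0 counts in JAML-negative libraries. Eif4ebp1 had 202 and 0 counts in JAML-positive libraries, and Castor2 had 409 and 0 counts in JAML-negative libraries. Bad passed with DESeq2 (adjusted p = 0.000218) and not with edgeR (adjusted p = 0.609). Deptor, which encodes an mTOR inhibitor of both complexes, had 3 and 2 counts in JAML-positive cells against 149 and 6 in JAML-negative cells, and was not tested because of its low counts.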
